A study of Mus musculus with 5 samples.

Results

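Molecular chaperones of the cytosol and of mitochondria were examined in follicular regulatory T (Tfr) cells that lack the transcription factor C/EBP alpha. The set was a list of 45 mouse genes, taken by exact gene symbol from the annotated gene rows of the deposited tables. All 45 were found among 57186 annotated genes, and each was above the filter on low values that left 16254 genes for testing. The list was divided into 16 stress-inducible genes, which heat shock is known to induce strongly, and 29 constitutive genes, which cells make without stress. The division follows textbook knowledge, and some genes called constitutive here, such as Hspa8 and Hsp90ab1, also respond to heat.

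Cebpa_KO cells (2 libraries) came from Foxp3-Cre Cebpa-flox/flox mice, in which Cre recombinase made under Foxp3 removes Cebpa from regulatory T cells in general and not from Tfr cells alone. WT cells (3 libraries) came from Foxp3-GFP reporter mice, so by the labels Cebpa is not the sole locus that differs, since each group has an altered Foxp3 allele of its own. All mice had received imiquimod, a TLR7 agonist, and splenic cells were sorted at 21 days as live CD4+ cells positive for Foxp3, CXCR5, PD-1 and ICOS. Mice were pooled for each library, and p-values therefore describe how pools vary, not single animals. The age of the mice is not given in the sources used here. Levels are TPM (transcript abundance normalised to length and to the library total), scaled between libraries, so that genes can be set side by side. Differences are given on the log2(scaled TPM + 1) scale, which understates the change of genes near or below 1 TPM.

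Aligned depth was 6.76 to 6.80 gigabases per Cebpa_KO library and 6.77 to 7.08 per WT library. Cebpa stood at 0.317 and 0.55 in Cebpa_KO, against 12.9, 17.7 and 12.8 in WT, and Foxp3 at 6.74 and 5.58 in Cebpa_KO, against 83.0, 107 and 105 in WT, so the Cebpa_KO libraries carried little Foxp3 transcript although cells were sorted on Foxp3. The other sort markers Cd4, Cd3e, Cxcr5, Pdcd1 and Icos were detected in all libraries. Of all 6 sort markers 4 fell, where 9.82% of all genes tested did, and none rose (limma, with 0 higher at an unadjusted p under 0.05). Transcripts of 4 Y-linked genes summed to 0 and 0.0311 in Cebpa_KO, against 162, 159.9 and 151 in WT, so the sex of the mice followed the genotype and the effects of sex and genotype cannot be told apart. No chaperone gene of the list lies on the X chromosome. Immediate early genes, which respond quickly to stimulation, summed to 3877 and 4158 in the Cebpa_KO libraries, against 1539, 1673 and 4602 in the WT libraries. Of 12 such genes 2 rose and none fell, where 9.93% and 9.82% of all genes tested did, and without WT replicate 3 the count was 9 higher and 1 lower, where 13.7% and 11.5% did. Atf3, 1 of the 2, passed the filter through Cebpa_KO alone, so its call carries no weight. The same holds without WT replicate 3 for Atf3, Ier3 and Fosb. Markers of other cells were uneven between libraries. B cell and plasma cell markers summed to 439.9 and 115 in Cebpa_KO, against 128, 95.2 and 655 in WT, with no call among 7 tested. Myeloid and dendritic markers summed to 339 and 99.8 in Cebpa_KO, against 97.8, 66.9 and 168 in WT, also with no call among 7. Erythroid and platelet markers summed to 1154 and 126 in Cebpa_KO, against 47.6, 34.4 and 379 in WT, with no call among 4. At an unadjusted p under 0.05 the counts were 0, 1 and 0 higher in those 3 lists (limma), with none lower, and no marker of other cells was at 0 in all libraries. CD8 and NK cell markers summed to 41.1 and 33.5 in Cebpa_KO, against 74.7, 73.3 and 86.4 in WT. Of 5 tested 1 fell, Klrb1c, where 9.82% of all genes tested did. Cell cycle genes summed to 2572 and 2579 in Cebpa_KO, against 1947, 1818 and 1266 in WT, and 4 of 10 rose, where 9.93% of all genes tested did. The 4 were Mcm2, Mcm3, Mcm5 and Mcm6. Without WT replicate 3 the differences of Ccnb1, Top2a and Mki67 were -0.07, -0.21 and -0.26.

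Chaperones bind proteins that are unfolded or partly folded and keep them from clumping. HSP70 proteins grip short exposed stretches in a cycle of ATP binding and hydrolysis, in which J proteins deliver the client and nucleotide exchange factors release it. HSP90 acts later, on kinases, receptors and other clients that are nearly folded, and the ring-shaped chaperonins CCT in the cytosol and HSP60 in mitochondria enclose a client while it folds. Heat shock factor 1 is held inactive in unstressed cells and, once released, drives the inducible genes by binding inverted repeats of nGAAn, the heat shock element. In T cells chaperones are also known to increase as a cell is activated and makes more protein.

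Most chaperone genes were higher in Cebpa_KO Tfr cells. Of the 45 genes 27 rose and 2 fell (limma, Benjamini-Hochberg adjusted p under 0.05), where 9.93% of all genes tested rose and 9.82% fell. Of the stress-inducible genes 7 of 16 rose and none fell, and at an unadjusted p under 0.05 9 were higher and 0 lower (limma). Of the constitutive genes 20 of 29 rose and 2 fell. The 27 and the 20 include Hsf2, which passed the filter on low values through Cebpa_KO alone, so its call carries no weight. The median log2 fold change was 0.73 over the list, 1.01 in the stress-inducible class and 0.69 in the constitutive class, beside 0.01 over all genes tested. In 37 genes both Cebpa_KO libraries lay above all WT libraries and in 4 below them, beside 28.7% and 28.0% of all genes tested. The calls needed both Cebpa_KO libraries. With either of them left out, 1 library remained in that group, and calls were lost over all genes and not just in the list. The stress-inducible median was then 1.03 without Cebpa_KO replicate 1 and 1.12 without Cebpa_KO replicate 2. The constitutive median was 0.69 and 0.62 in the same order. Leaving out WT replicate 2 left 18 members higher and none lower, where 437 genes were higher and 390 lower of 15977 tested. With no filter on low values 16 members were higher and none lower (limma, with 35 and 2 at an unadjusted p under 0.05). In that setting 930 genes were higher and 629 lower of 38302 tested.

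Added up, the chaperone genes took 1.48 and 1.48% of all annotated TPM in the Cebpa_KO libraries, against 0.713, 0.692 and 0.977% in WT replicates 1, 2 and 3. The constitutive genes alone summed to 9168 and 8994 in Cebpa_KO, against 5591, 5232 and 6384 in WT scaled TPM, with no overlap between the groups. The stress-inducible genes summed to 5281 and 5367 in Cebpa_KO, against 1355, 1219 and 3299 in WT, with WT replicate 3 between the other WT libraries and Cebpa_KO. In bulk RNA of this kind, a change in the number of cells of one type and a change in the RNA per cell cannot be told apart.

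**Figure D1:**
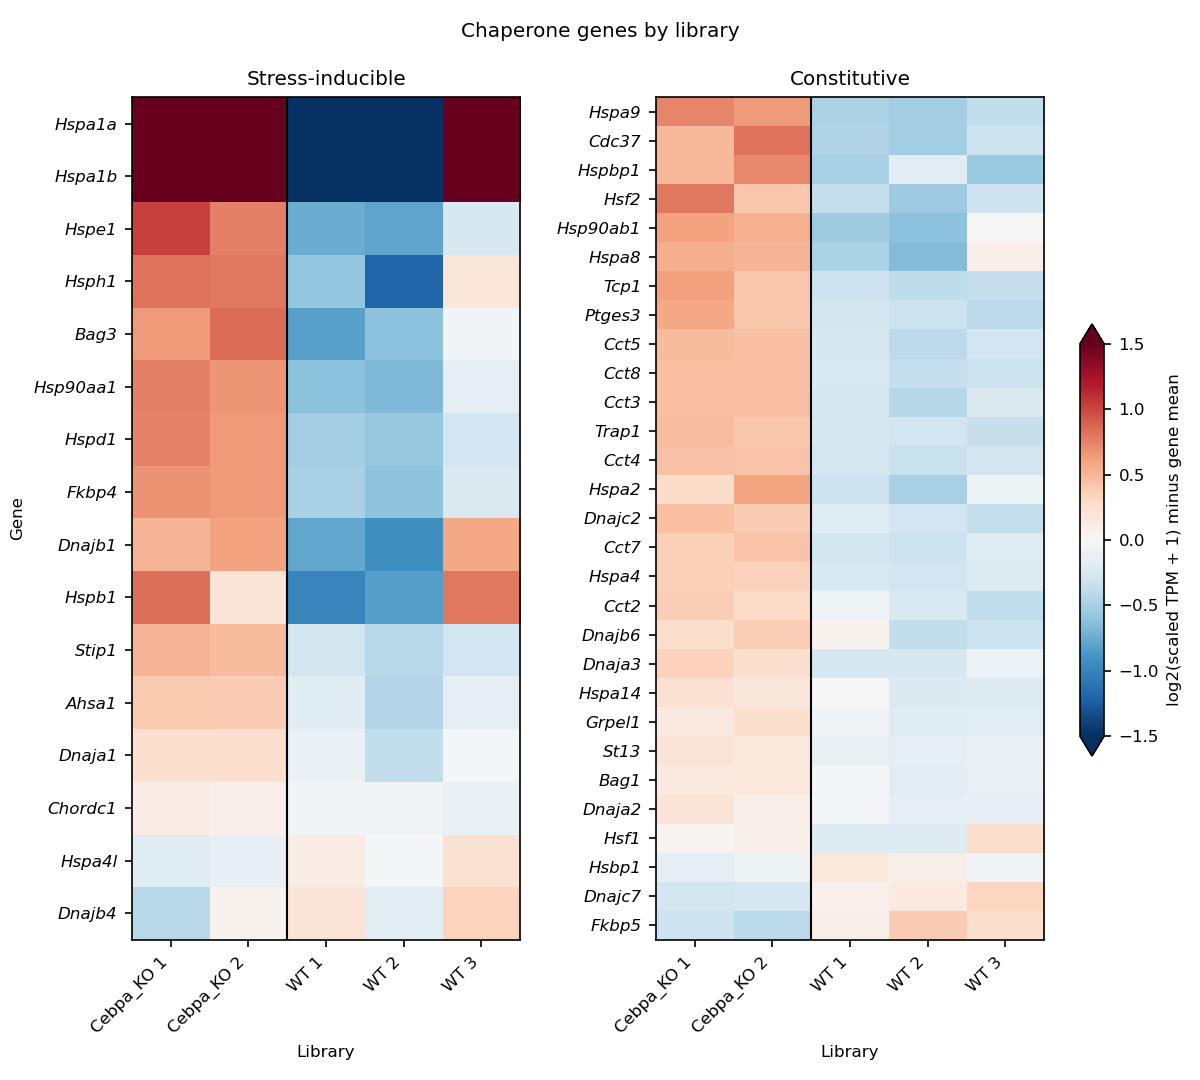
Heat map of the 45 chaperone genes, one row per gene and one column per library, coloured by log2(scaled TPM + 1) minus the mean of the gene over 5 libraries, with colours saturating at ±1.5. The Cebpa_KO columns are red in most rows, and WT replicate 3 is paler or red in several stress-inducible rows, Hspa1a, Hspa1b, Dnajb1 and Hspb1 among them.

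Hspa1a and Hspa1b encode the strictly inducible cytosolic HSP70, which resting cells hardly make. Hspa1a (ENSMUSG00000091971, mm39 chromosome 17, 35188166 to 35191132, minus strand) was at 1147 and 1238 in Cebpa_KO, against 0.911, 0.684 and 690.3 in WT. Hspa1b (ENSMUSG00000090877, chromosome 17, 35175412 to 35178214, minus strand) was at 1419.8 and 1498 in Cebpa_KO, against 1.87, 1.33 and 880.4 in WT. WT replicates 1 and 2 thus held about 1 TPM of each gene, while WT replicate 3 held 865 times as much Hspa1a and 551 times as much Hspa1b. The Cebpa_KO means were 1.73 and 1.66 times the level of WT replicate 3. By level, Hspa1b was gene number 57 and 55 of its library in Cebpa_KO, against 13558, 14542 and 123 in WT. With WT libraries this far apart neither gene passed (log2 fold change 6.51 with a standard error of 2.75, adjusted p = 0.15 by limma for Hspa1a, and an adjusted p = 0.152 for Hspa1b). Against WT replicates 1 and 2 alone Hspa1a was higher by 9.38 and Hspa1b by 9.14 (limma adjusted p = 0.00015 and 0.000198). Hspa1a was under 1 TPM in both of those WT libraries and so passed the filter there through Cebpa_KO alone, and its call carries no weight. For both genes, leaving out WT replicate 3, the WT library closest to Cebpa_KO, raised the difference and lowered its standard error. The calls against WT replicates 1 and 2 are therefore not separate support. Together the pair made up 17.8 and 19.0% of the chaperone TPM in Cebpa_KO, against 0.04, 0.0312 and 16.2% in WT. Relative to Hspa8, the constitutive HSP70, the pair reached a ratio of 1.3 and 1.41 in Cebpa_KO, against 0.00285, 0.00234 and 1.1 in WT.

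The copies are nearly the same gene, which bears on how their reads were assigned. Of all stretches of 100 bases in the GENCODE M21 transcript of Hspa1a, 47.1% also occur in Hspa1b, and none occurs in Hspa8. Reads from those stretches cannot be placed in 1 copy with certainty, so the sum of the pair is firmer than the level of either. That sum was 2567 and 2736 in the Cebpa_KO libraries, against 2.78, 2.01 and 1571 in the WT libraries. The ratio of Hspa1a to Hspa1b was 0.808 and 0.827 in Cebpa_KO, against 0.488, 0.515 and 0.784 in WT. Summed as 1 gene, the pair had a log2 fold change of 6.66 and again did not pass (adjusted p = 0.153 by limma). Since the copies share reads, their like patterns over the libraries are not independent. The 250 bases before the start of each gene are shown because both copies had the same pattern, and they differ at 3 of 250 positions. In the whole RefSeq windows of 300 bases on GRCm38.p6 there were 4 differences, C44T, T47C, T249G and C276T, with the Hspa1a base first and positions counted from 1 at the 5′ end. Both sequences are on the minus strand, at chr17:34972157-34972406 and chr17:34959239-34959488 of GRCm38.p6, and capitals mark GAANNTTC, a heat shock element of 2 units.
Hspa1a: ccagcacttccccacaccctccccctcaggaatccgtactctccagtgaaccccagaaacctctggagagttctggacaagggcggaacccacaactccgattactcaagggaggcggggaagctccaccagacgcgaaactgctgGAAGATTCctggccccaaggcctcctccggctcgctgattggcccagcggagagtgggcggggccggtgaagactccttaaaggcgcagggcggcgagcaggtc
Hspa1b: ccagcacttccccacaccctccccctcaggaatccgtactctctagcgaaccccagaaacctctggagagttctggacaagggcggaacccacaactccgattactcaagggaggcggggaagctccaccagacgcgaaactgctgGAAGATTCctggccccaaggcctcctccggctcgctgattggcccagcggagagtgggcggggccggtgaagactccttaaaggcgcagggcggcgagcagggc

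The libraries with much Hspa1a were also those with high immediate early sums, as given above. Cebpa_KO replicate 2 had the highest Hspa1a level of all libraries, while its B cell and plasma cell marker sum of 115 lay within the range of WT replicates 1 and 2. Its erythroid and platelet sum of 126 and its myeloid and dendritic sum of 99.8 lay above both of those WT libraries, the myeloid sum by little. Erythroid and myeloid sums were thus higher in all 3 libraries with much Hspa1a than in WT replicates 1 and 2. The myeloid markers were mixed in Cebpa_KO replicate 2. There S100a8, S100a9 and Mpo lay above WT replicates 1 and 2, Lyz2, Csf1r and Itgam below both, and Cd68 between them. WT replicate 3 had the highest B cell and plasma cell sum of all libraries. The part of the immediate early genes and of other cell types in the level of Hspa1a was not tested.

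Among the other stress-inducible genes, Hspe1, Hspd1, Bag3, Hsp90aa1, Fkbp4, Stip1 and Ahsa1 rose. Hsp90aa1, the inducible isoform of cytosolic HSP90, was at 314 and 295 in Cebpa_KO, against 121, 117 and 169 in WT (log2 fold change 1.18 with a standard error of 0.18, adjusted p = 0.0152 by limma). Bag3, an exchange factor of HSP70 that steers clients to autophagy, was at 45.3 and 52.3 in Cebpa_KO, against 15.9, 18.4 and 28.0 in WT (log2 fold change 1.23 with a standard error of 0.25, adjusted p = 0.0274 by limma). WT replicate 3 was the highest WT library for both, and below Cebpa_KO. Bag3 did not pass without WT replicate 1 or without WT replicate 2, and Hsp90aa1 did not pass without WT replicate 2.

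Hsph1, Dnajb1 and Hspb1 resembled Hspa1a in that WT replicate 3 stood far from WT replicates 1 and 2. Hsph1, an HSP110 that recharges HSP70, was at 116 and 115 in Cebpa_KO, against 43.7, 28.0 and 75.0 in WT and did not pass (log2 fold change 1.33 with a standard error of 0.39, adjusted p = 0.0682 by limma). Dnajb1, the main J protein of the heat shock response, was at 274 and 293 in Cebpa_KO, against 112, 102 and 289 in WT (log2 fold change 0.92 with a standard error of 0.47, adjusted p = 0.21 by limma). Its level in WT replicate 3 lay within the range of the Cebpa_KO libraries. Hspb1, the small heat shock protein HSP25 of the mouse, was at 16.7 and 10.4 in Cebpa_KO, against 4.01, 4.64 and 16.2 in WT (log2 fold change 0.85 with a standard error of 0.58, adjusted p = 0.335 by limma), with WT replicate 3 again between the Cebpa_KO libraries. Without WT replicate 3 these 3 genes were called higher, by 1.69, 1.40 and 1.42 (limma adjusted p = 0.0122, 0.0043 and 0.0218). WT replicate 3 was the WT library closest to Cebpa_KO for each of them. Leaving it out raised the difference and lowered its standard error, so these calls are not separate support.

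The other 4 stress-inducible genes were not called. Dnaja1, a J protein that carries a farnesyl anchor, was at 185 and 185 in Cebpa_KO, against 145, 119.9 and 153 in WT and did not pass (limma adjusted p = 0.0671), but did against WT replicates 1 and 2 (adjusted p = 0.0379). Chordc1, a partner of HSP90, was at 45.1 and 43.9 in Cebpa_KO, against 40.3, 40.3 and 38.9 in WT, a narrow range over all libraries (log2 fold change 0.16 with a standard error of 0.08, adjusted p = 0.206 by limma). Hspa4l, an HSP110 relative abundant in testis, was at 10.6 and 11.2 in Cebpa_KO, against 13.2, 11.9 and 14.4 in WT (log2 fold change -0.25 with a standard error of 0.13, adjusted p = 0.209 by limma). Dnajb4, a close relative of Dnajb1, was the weakest of the class at 2.59 and 3.98 in Cebpa_KO, against 4.46, 3.28 and 5.02 in WT (log2 fold change -0.30 with a standard error of 0.23, adjusted p = 0.392 by limma). Hspa4l and Dnajb4 thus had negative differences that did not pass.

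**Figure D2:**
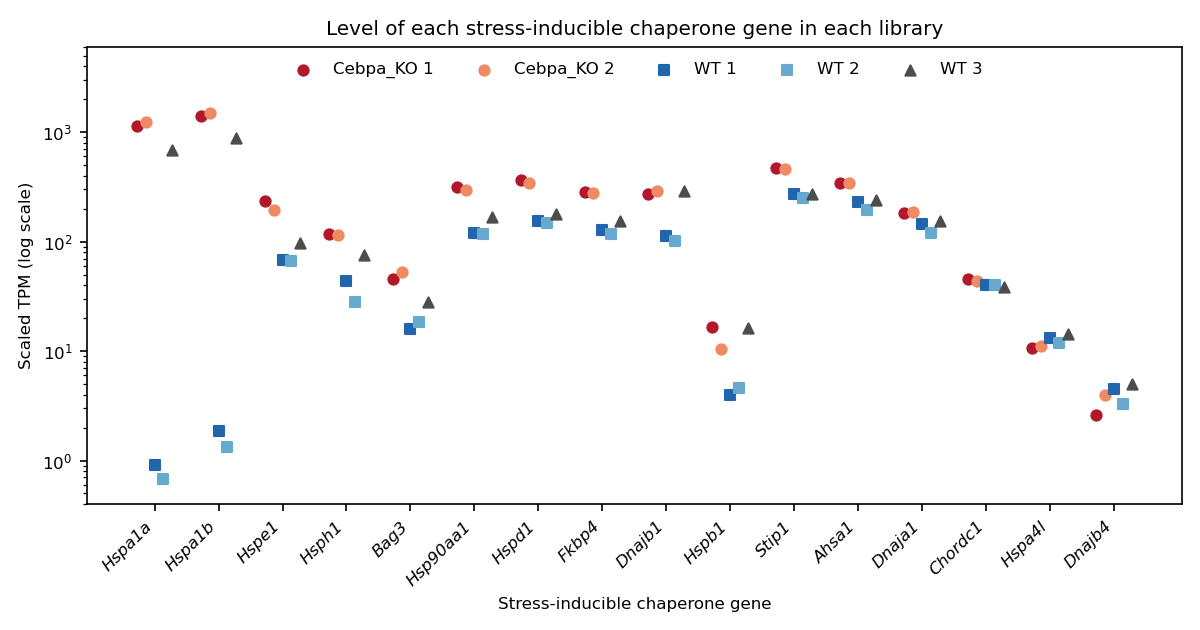
Level of each of the 16 stress-inducible genes, in scaled TPM on a log axis, with circles for the Cebpa_KO libraries, squares for WT replicates 1 and 2 and triangles for WT replicate 3. The triangles lie closer to the circles than to the squares for Hspa1a, Hspa1b, Dnajb1 and Hspb1, and near the squares for Stip1 and Chordc1.

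Promoter letters were searched in the RefSeq windows of 250 bases before to 50 after each gene start (GRCm38.p6), which matched 37 of the 45 genes. The heat shock element of 3 units, GAANNTTC followed at once by NNGAA and read on both strands, occurred in the windows of 5 genes, Chordc1, Dnajb6, Hspd1, Hspe1 and Hsph1, and in 0.603% of all 32851 windows. The shorter forms GAANNTTC or TTCNNGAA, searched after the values were seen and contained in the longer motif, occurred in 15 genes, 11 of them stress-inducible out of 15 with a window, and in 15.1% of all windows. The C/EBP type letters TTGCNNAA, read on both strands, occurred in Dnajb4, Dnajb6 and Hspa2, and in 10.8% of all windows. TATAAA on the gene strand occurred in Stip1, and in 8.32% of all windows. A gene was counted if any of its windows matched, and some genes have more than 1, whereas the shares are over windows. Counts and shares are thus not the same measure, and Hspd1 and Hspe1 share their element. These are matches of letters, not measured sites.

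Hspd1 and Hspe1 lie head to head. In the deposited mm39 rows their ends overlap, since Hspd1 reaches to 55127402 and Hspe1 starts at 55127291. With the strand setting not given, reads from that overlap cannot be told apart. The stretch between their RefSeq starts on GRCm38.p6 is shown because both genes rose and share it. It spans chr1:55087933-55088147 of GRCm38.p6 and is written on the plus strand, towards Hspe1, with a run of heat shock units in capitals.
Hspd1-Hspe1: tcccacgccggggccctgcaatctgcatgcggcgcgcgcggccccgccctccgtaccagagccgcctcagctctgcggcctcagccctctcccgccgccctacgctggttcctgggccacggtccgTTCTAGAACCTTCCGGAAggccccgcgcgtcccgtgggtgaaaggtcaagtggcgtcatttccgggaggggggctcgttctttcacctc

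The other long elements are shown as 30 bases each, with the motif in capitals, to set their genes side by side. They are Hsph1 at chr5:149636279-149636308 (minus strand), Chordc1 at chr9:18292260-18292289 (plus strand) and Dnajb6 at chr5:29735844-29735873 (plus strand), all on GRCm38.p6.
Hsph1: gctgcagaTTCTGGAAAGTTCtcctcagta
Chordc1: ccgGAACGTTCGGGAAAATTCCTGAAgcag
Dnajb6: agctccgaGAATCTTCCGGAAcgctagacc
Of these, Chordc1 has the longest run of units and showed a log2 difference of 0.16, whereas Hsph1 showed 1.33 and Dnajb6 0.52, none of which passed.

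Among the constitutive HSP70 genes, Hspa8 (HSC70, the housekeeping HSP70 of the cytosol) was the most abundant chaperone gene of the list. Hspa8 was at 1977 and 1934 in Cebpa_KO, against 976, 862 and 1432 in WT (log2 fold change 0.88 with a standard error of 0.23, adjusted p = 0.0499 by limma). The adjusted p lay at the threshold, and the call was lost with pseudocounts of 0.1 or 5, without a trend, without filtering and without WT replicate 1 or 2. Hspa2, an HSP70 best known from male germ cells, was at 11.3 and 14.3 in Cebpa_KO, against 7.15, 6.23 and 8.61 in WT (log2 fold change 0.73 with a standard error of 0.18, adjusted p = 0.0471 by limma), a call also lost without WT replicate 1 or 2. Hspa14, which works with Dnajc2 on nascent chains at the ribosome, was at 171 and 164 in Cebpa_KO, against 146, 125 and 127 in WT and did not pass (limma adjusted p = 0.0651). Hspa4, the constitutive HSP110, was at 134 and 133 in Cebpa_KO, against 89.3, 85.6 and 91.3 in WT (log2 fold change 0.59 with a standard error of 0.07, adjusted p = 0.0104 by limma). Both Cebpa_KO libraries lay above all WT libraries for Hspa4, as in 28.7% of all genes tested.

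Cytosolic HSP90 was made mainly as its constitutive isoform. Hsp90ab1 was at 1851 and 1752 in Cebpa_KO, against 837, 794 and 1220.2 in WT and rose (log2 fold change 0.95 with a standard error of 0.20, adjusted p = 0.0323 by limma), with WT replicate 3 above WT replicates 1 and 2. The ratio of the inducible Hsp90aa1 to Hsp90ab1 was 0.17 and 0.168 in Cebpa_KO, against 0.145, 0.147 and 0.139 in WT. Hsp90ab1 did not pass without WT replicate 1 or without WT replicate 2.

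Of 6 mitochondrial chaperones 5 rose, where 9.93% of all genes tested did, and the sixth, Grpel1, stood at an adjusted p = 0.0572 by limma. Hspa9 (mortalin, the mitochondrial HSP70 that pulls imported proteins into the matrix) was at 243 and 228 in Cebpa_KO, against 105, 101 and 113 in WT (log2 fold change 1.14 with a standard error of 0.08, adjusted p = 0.00543 by limma), the lowest p of the list. Hspd1 (HSP60) was at 367 and 343 in Cebpa_KO, against 153, 147 and 179 in WT (log2 fold change 1.15 with a standard error of 0.11, adjusted p = 0.00682 by limma). Hspe1 (HSP10, the lid of the HSP60 chamber) was at 237 and 195 in Cebpa_KO, against 68.3, 66.6 and 97.3 in WT (log2 fold change 1.48 with a standard error of 0.20, adjusted p = 0.0117 by limma). The Cebpa_KO levels of these 3 genes were about 2.08, 1.98 and 2.22 times that of WT replicate 3, the closest WT library. The ratio of Hspd1 to Hspe1 transcripts was 1.55 and 1.76 in Cebpa_KO, against 2.24, 2.21 and 1.84 in WT, lowest in Cebpa_KO. Trap1, the mitochondrial HSP90, overlaps Dnase1 on the other strand and was at 153 and 147 in Cebpa_KO, against 93.5, 90.3 and 86.4 in WT (log2 fold change 0.73 with a standard error of 0.08, adjusted p = 0.00744 by limma). Dnaja3, the J protein of mortalin, overlaps Coro7 on the other strand and was at 76.5 and 70.7 in Cebpa_KO, against 50.1, 50.6 and 56.2 in WT (log2 fold change 0.49 with a standard error of 0.09, adjusted p = 0.0251 by limma), and did not pass without WT replicate 1 or 2. Grpel1, the exchange factor of mortalin, was at 71.3 and 76.0 in Cebpa_KO, against 62.6, 56.6 and 57.7 in WT and did not pass. Reads of Hspd1 and Hspe1 could also be split with processed copies: Hspd1-ps3 was at 15.5 and 15.0 in Cebpa_KO, against 6.35, 5.7 and 6.43 in WT and Hspe1-ps3 at 2.45 and 2.21 in Cebpa_KO, against 0.693, 1.41 and 1.6 in WT.

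The J proteins of the cytosol went both ways. Dnajc2 (the ribosome-bound partner of Hspa14) was at 92.5 and 87.7 in Cebpa_KO, against 59.1, 55.0 and 52.5 in WT and rose (log2 fold change 0.69 with a standard error of 0.09, adjusted p = 0.0109 by limma). Dnajc7, which has tetratricopeptide repeats and binds both HSP70 and HSP90, was at 162 and 164 in Cebpa_KO, against 204, 216 and 246 in WT and fell (log2 fold change -0.44 with a standard error of 0.10, adjusted p = 0.0379 by limma). The fall of Dnajc7 did not pass without WT replicate 2, without a trend or without filtering. The gene overlaps Cnp and Nkiras2 on the other strand, and since the strand setting is not given, their reads cannot be told apart from those of Dnajc7. Dnajb6, an inhibitor of aggregation of glutamine-rich proteins, was at 90.0 and 97.0 in Cebpa_KO, against 78.1, 57.9 and 60.0 in WT and did not pass (limma adjusted p = 0.0639). Dnaja2 was at 113 and 105 in Cebpa_KO, against 97.2, 89.1 and 90.2 in WT, also without a call (limma adjusted p = 0.094).

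Of 4 nucleotide exchange factors, Bag3 and Hspbp1 rose, where 9.93% of all genes tested did. Hspbp1, which prises the nucleotide from HSP70, was at 98.7 and 117 in Cebpa_KO, against 49.8, 62.6 and 47.3 in WT (log2 fold change 1.01 with a standard error of 0.15, adjusted p = 0.0152 by limma). Bag1 was the most abundant of them, at 326 and 330.3 in Cebpa_KO, against 289, 264 and 272 in WT, and did not pass (limma adjusted p = 0.0712). The ratio of Bag3 to Bag1 was 0.139 and 0.158 in Cebpa_KO, against 0.0549, 0.0699 and 0.103 in WT.

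Of 8 co-chaperones of HSP90 and HSP70, 6 rose and 1 fell, where 9.93% and 9.82% of all genes tested did. Stip1 (HOP, which hands clients from HSP70 to HSP90) was the most abundant, at 472 and 463 in Cebpa_KO, against 275, 248 and 271 in WT (log2 fold change 0.82 with a standard error of 0.08, adjusted p = 0.00702 by limma). Cdc37, which brings kinases to HSP90, was at 137 and 171 in Cebpa_KO, against 70.9, 67.5 and 77.4 in WT (log2 fold change 1.08 with a standard error of 0.12, adjusted p = 0.00892 by limma). Ptges3 (p23, which stabilises the closed form of HSP90) was at 165 and 145 in Cebpa_KO, against 90.4, 87.3 and 83.4 in WT (log2 fold change 0.82 with a standard error of 0.09, adjusted p = 0.00821 by limma). Its processed copy Ptges3-ps was at 35.8 and 31.7 in Cebpa_KO, against 18.0, 18.9 and 18.7 in WT, and reads may be split between them. Ahsa1, the activator of the HSP90 ATPase, overlaps Gm54499 on its own strand and was at 343 and 342 in Cebpa_KO, against 231, 193 and 238 in WT (log2 fold change 0.64 with a standard error of 0.11, adjusted p = 0.0204 by limma). St13 (HIP, which slows the HSP70 cycle) was at 124 and 121 in Cebpa_KO, against 100.2, 97.6 and 101 in WT, a small rise of 0.29 with an adjusted p = 0.0418 (limma) that was not kept without WT replicate 1 or 2, without a trend or with quantile normalization.

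The pair of FK506-binding immunophilins moved apart. Fkbp4 (FKBP52), which promotes signalling by steroid receptors held on HSP90, was at 285 and 279 in Cebpa_KO, against 127, 117 and 154 in WT and rose (log2 fold change 1.09 with a standard error of 0.13, adjusted p = 0.00968 by limma). Fkbp5 (FKBP51), which damps glucocorticoid receptor signalling and is itself induced by glucocorticoids, was at 98.3 and 92.0 in Cebpa_KO, against 129.8, 159.6 and 145 in WT and fell (log2 fold change -0.60 with a standard error of 0.11, adjusted p = 0.0228 by limma). Both Cebpa_KO libraries lay below all WT libraries for Fkbp5, as in 28.0% of all genes tested. The call was lost without WT replicate 2 and with no filter on low values. The ratio of Fkbp4 to Fkbp5 was 2.9 and 3.03 in Cebpa_KO, against 0.977, 0.733 and 1.06 in WT, with all WT libraries near or below parity.

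**Figure D3:**
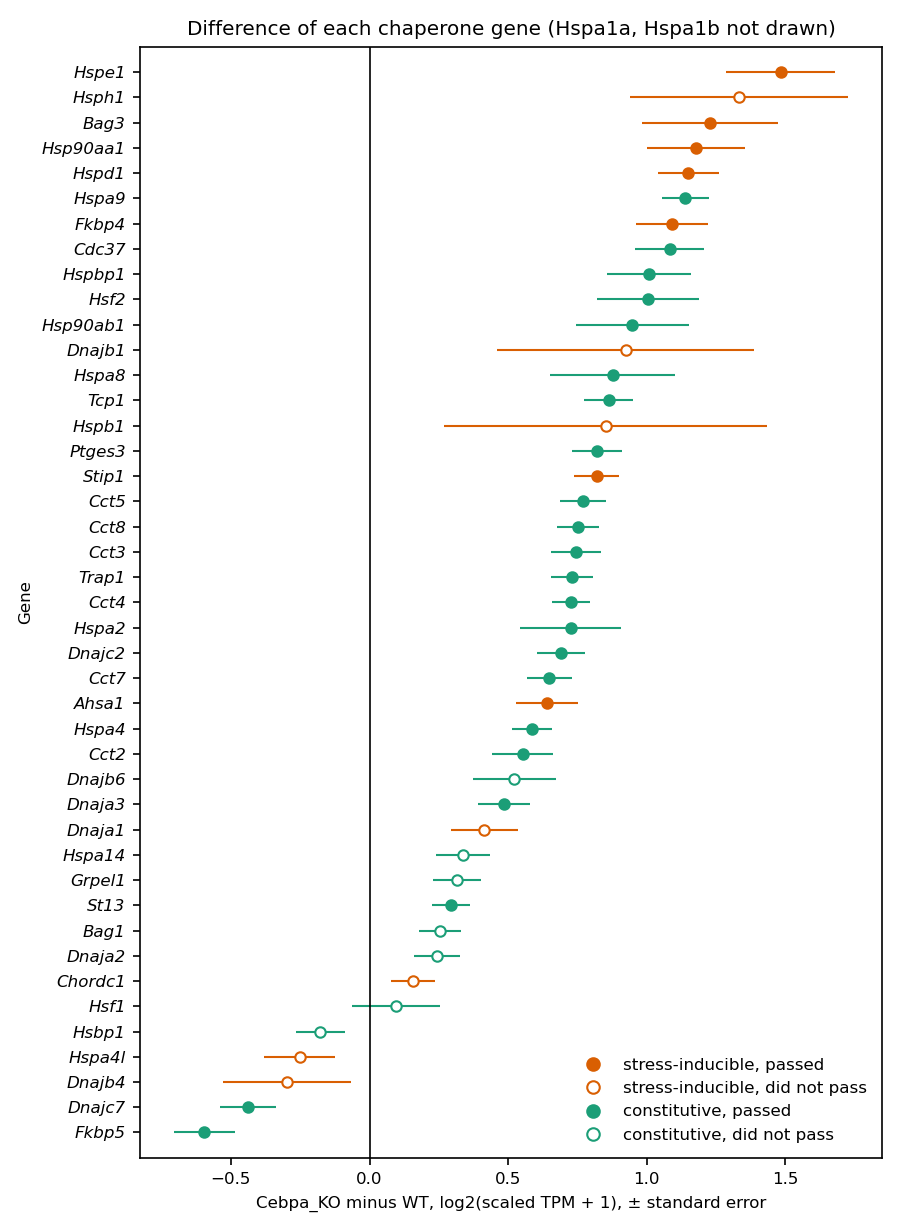
Difference of 43 chaperone genes between Cebpa_KO and WT on the log2(scaled TPM + 1) scale, with standard errors, filled where the adjusted p was under 0.05. Hspe1 stands highest at 1.48 and Fkbp5 lowest at -0.60, while Hspa1a at 6.51 and Hspa1b at 6.34 lie beyond the axis and are not drawn.

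The CCT chaperonin, which folds actin, tubulin and other cytosolic proteins in a ring of different subunits, rose in all 7 listed subunits. Over all genes tested 9.93% rose. The log2 fold changes of the 7 subunits lay between 0.55 and 0.86. Tcp1 (the alpha subunit, overlapped by Mrpl18 on the other strand) was at 283 and 246 in Cebpa_KO, against 148, 141 and 145 in WT (log2 fold change 0.86 with a standard error of 0.09, adjusted p = 0.00725 by limma). Cct5 was the most abundant subunit, at 596 and 588 in Cebpa_KO, against 364, 326 and 351 in WT (log2 fold change 0.77 with a standard error of 0.08, adjusted p = 0.00763 by limma). Cct3 was at 529 and 528 in Cebpa_KO, against 325, 289 and 332 in WT (log2 fold change 0.75 with a standard error of 0.09, adjusted p = 0.00989 by limma). Cct8 was at 469.9 and 469.6 in Cebpa_KO, against 292, 269.8 and 273 in WT (log2 fold change 0.75 with a standard error of 0.08, adjusted p = 0.00716 by limma). Cct4, with 239 and 237 in Cebpa_KO, against 147, 139.5 and 145 in WT, and Cct7, with 431 and 453 in Cebpa_KO, against 279, 269 and 298 in WT, differed by 0.73 and 0.65 (limma adjusted p = 0.00682 and 0.0106). Cct2 had the lowest mean in both groups, at 202 and 191 in Cebpa_KO, against 149, 133 and 120.3 in WT (log2 fold change 0.55 with a standard error of 0.11, adjusted p = 0.0272 by limma), and did not pass without WT replicate 2. In every subunit the Cebpa_KO libraries lay above all WT libraries, as in 28.7% of all genes tested.

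In this complex WT replicate 3 lay near the other WT libraries. The mean over the 7 subunits was 393 and 388 in Cebpa_KO, against 243, 224 and 238 in WT. The median difference of Cebpa_KO was 0.74 when set beside WT replicates 1 and 2, and 0.72 when set beside WT replicate 3. The shares of subunits within the sum differed in how steady they were. Cct2 made up 7.36 and 7.05% of the sum in Cebpa_KO, against 8.74, 8.52 and 7.23% in WT, and Tcp1 10.3 and 9.06% in Cebpa_KO, against 8.67, 8.98 and 8.71% in WT. The shares of Cct5 and Cct4 varied less: Cct5 made up 21.7 and 21.7% in Cebpa_KO, against 21.4, 20.8 and 21.1% in WT, and Cct4 8.71 and 8.73% in Cebpa_KO, against 8.6, 8.9 and 8.7% in WT. The eighth subunit gene, Cct6a, was outside the list. It was at 346 and 335 in Cebpa_KO, against 179, 166 and 189 in WT and rose (log2 fold change 0.94 with a standard error of 0.09, adjusted p = 0.00648 by limma).

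**Figure D4:**
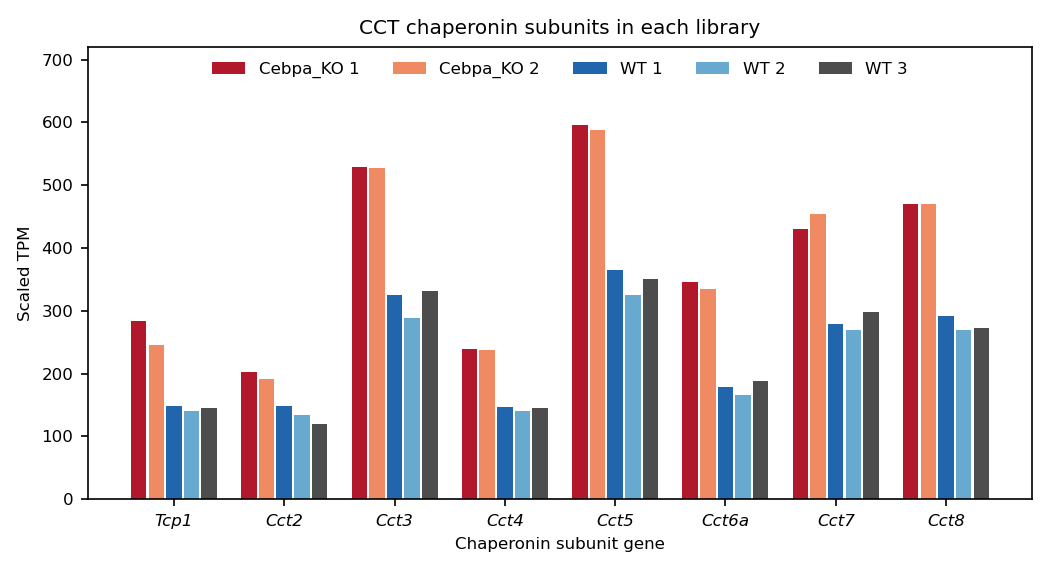
Scaled TPM of the CCT chaperonin subunit genes, one bar per library, with Cebpa_KO in reds and WT in blues and grey. Both Cebpa_KO bars exceed all WT bars of each subunit, and the WT replicate 3 bar stays near those of WT replicates 1 and 2.

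The regulators of the heat shock response gave few calls. Hsf1, the master factor of the response, which is controlled mainly at the protein level, was at 112 and 115 in Cebpa_KO, against 95.5, 95.4 and 131 in WT (log2 fold change 0.09 with a standard error of 0.16, adjusted p = 0.697 by limma). Its highest level was in WT replicate 3. Hsf2, a related factor that pairs with HSF1, was scarce at 3.36 and 2.39 in Cebpa_KO, against 0.977, 0.735 and 1.05 in WT and rose (log2 fold change 1.00 with a standard error of 0.18, adjusted p = 0.0229 by limma). Hsf2 stood near the filter limit of 1 TPM in WT and passed the filter through Cebpa_KO alone, so its call carries no weight. The call was also lost without WT replicate 1 or 2. Hsbp1, a small coiled-coil protein that binds HSF1, was at 207 and 215 in Cebpa_KO, against 255, 242 and 221 in WT and did not pass (limma adjusted p = 0.205).

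The WT libraries were also taken apart. Without WT replicate 3, 33 of the 45 genes rose and 2 fell, where 13.7% and 11.5% of all genes tested did. The additional 6 were Hspa1a, Hspa1b, Hsph1, Dnajb1, Hspb1 and Dnaja1, all stress-inducible, and the 27 genes called with all libraries remained. In each of the 6, WT replicate 3 was the WT library closest to Cebpa_KO. Leaving it out raised the difference and lowered its standard error, so these added calls follow in part from the omission. Of the 33, Hspa1a and Hsf2 passed the filter here through Cebpa_KO alone, so their calls carry no weight. In the same comparison 9 of 12 immediate early genes were higher and 1 lower. Of those 9, Atf3, Ier3 and Fosb passed the filter through Cebpa_KO alone, and their calls carry no weight. Of 7 myeloid and dendritic markers 2 were higher, S100a8 and S100a9 (limma adjusted p = 0.0279 and 0.0329). The part of the immediate early genes and of these markers in the result was not tested. Measured from WT replicates 1 and 2, the stress-inducible median was 1.29, and measured from WT replicate 3 it was 0.67. The constitutive median was 0.69 and 0.57 in the same order. Both Cebpa_KO libraries lay above WT replicate 3 in 25 of 29 constitutive and 12 of 16 stress-inducible genes, and in 42.5% of all genes tested. WT replicate 3 exceeded WT replicates 1 and 2 in 14 stress-inducible and 13 constitutive genes, and in 36.5% of all genes tested. The medians and the counts of libraries above one another share libraries and are given as values without a test, unlike the limma calls above.

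**Figure D5:**
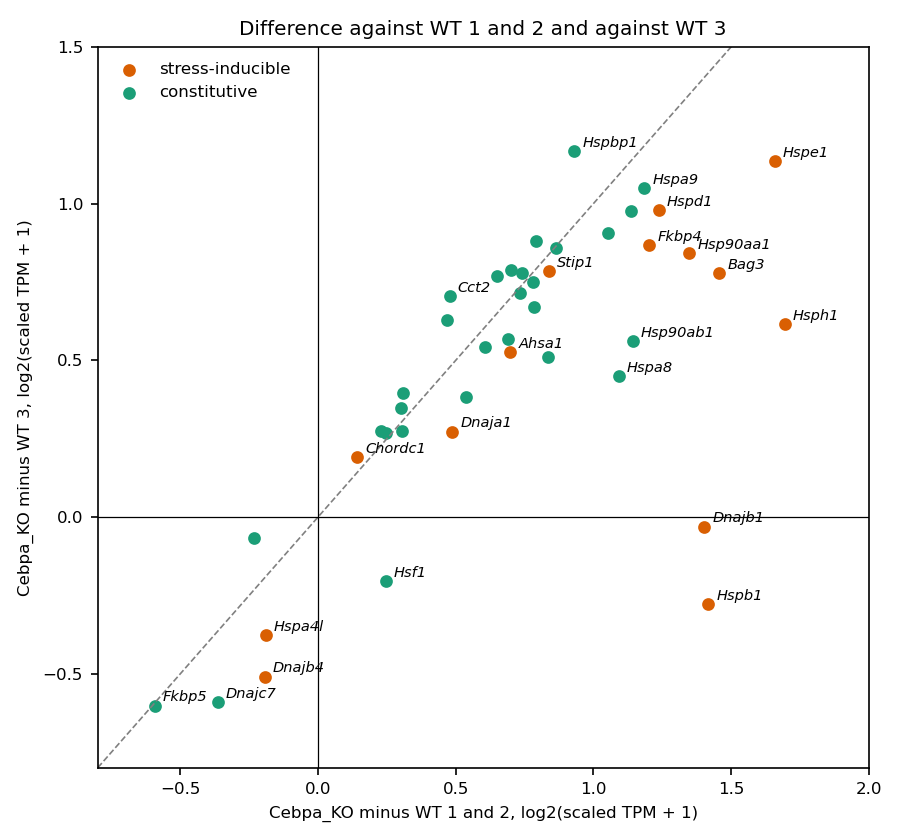
Mean Cebpa_KO level minus the mean of WT replicates 1 and 2 (horizontal) and minus WT replicate 3 (vertical) for 43 chaperone genes on the log2(scaled TPM + 1) scale, with a dashed line of equality. Dnajb1 at 1.40 and -0.03 and Hspb1 at 1.42 and -0.28 lie far below the line, while Hspa9 lies close to it and Hspa8 and Hsp90ab1 lie below it; Hspa1a at 9.38 and 0.79 and Hspa1b are not drawn.

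Other genes of the same pathways were counted over whole lists, to be read against 9.93% of all genes tested that rose and 9.82% that fell. Of 14 prefoldin, tubulin cofactor and remaining chaperonin genes 3 rose and none fell, with a median of 0.25. Besides Cct6a these were Pfdn2, at 56.6 and 57.8 in Cebpa_KO, against 33.5, 31.5 and 33.8 in WT, and Pfdn6, at 187 and 178 in Cebpa_KO, against 128, 136 and 119.5 in WT, which encode subunits of the prefoldin complex that hands clients to CCT. They rose by 0.78 and 0.51 (limma adjusted p = 0.00758 and 0.0195). Pfdn1 differed by 0.31 and did not pass.

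Of 18 further co-chaperones 4 rose (22.2%) and 2 fell, the falls being near the share over all genes tested, with a median of 0.16. Bag2, an exchange factor that restrains the ubiquitin ligase CHIP, was at 23.0 and 18.0 in Cebpa_KO, against 6.05, 5.00 and 3.78 in WT (log2 fold change 1.87 with a standard error of 0.21, adjusted p = 0.00892 by limma). Nudc (a partner of HSP90), Ruvbl1 (an ATPase that works with HSP90 in complex assembly) and Ppid (the immunophilin CYP40) rose by 0.83, 0.82 and 0.93. Cdc37l1, a relative of Cdc37, and Tsc1, an inhibitor of the HSP90 ATPase, fell and are named here after their values were seen (limma, differences -0.54 and -0.58, adjusted p = 0.0193 and 0.0369). Tsc1 did not pass against WT replicates 1 and 2 (limma adjusted p = 0.0539). Of 14 mitochondrial proteostasis genes 3 rose and none fell, with a median of 0.19. They were the disaggregase Clpb, the protease subunit Clpp and Dnajc11, at 0.49, 0.44 and 0.50. Of 15 further cytosolic J proteins 14 were tested and none passed (limma), with 1 higher and 1 lower at an unadjusted p under 0.05 and a median of -0.03. The lowest adjusted p among them was that of Dnajc21, 0.0532 by limma.

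Of 11 other heat shock response genes 7 were tested, 1 rose and 1 fell, which is near the share over all genes tested, and the median was 0.36. Cacybp, a partner of the ubiquitin ligase SIAH1, was at 177 and 169.7 in Cebpa_KO, against 90.0, 81.9 and 98.2 in WT (log2 fold change 0.94 with a standard error of 0.10, adjusted p = 0.00758 by limma). Dedd2 was at 20.4 and 21.0 in Cebpa_KO, against 38.0, 49.2 and 41.1 in WT and fell (log2 fold change -1.01 with a standard error of 0.13, adjusted p = 0.0116 by limma). Ier5, an HSF1 target and activator, was at 101 and 111 in Cebpa_KO, against 75.6, 75.0 and 98.0 in WT and did not pass (limma adjusted p = 0.135), but did against WT replicates 1 and 2 (adjusted p = 0.0206). Hspa1l, the testis HSP70 that lies beside Hspa1a, was at 1.19 and 6.16 in Cebpa_KO, against 0.0172, 0.137 and 2.11 in WT and did not pass. Without WT replicate 3, 4 genes of the list rose and 1 fell, where 13.7% and 11.5% of all genes tested did, the fall being near its share. Among the immediate early genes, Btg2 rose by 1.02. Atf3 was at 8.27 and 7.5 in Cebpa_KO, against 0.0513, 0 and 0.746 in WT, and since it passed the filter through Cebpa_KO alone, its call carries no weight. The median of the 12 was 1.22 for WT replicate 3 minus WT replicates 1 and 2 and -0.01 for Cebpa_KO minus WT replicate 3.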

How the data were processed

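RNA from sorted Tfr pools (2 Cebpa_KO, 3 WT) was made into full-length low-input cDNA libraries, per the labels' protocols. Reads were handled with STAR 2.7.11b and StringTie 2.1.3b on mm39, per the submitters' processing notes. Neither the annotation release nor the strand setting is stated, and 14 of the 45 genes overlap a gene on the other strand. TPM, as the authors deposited it, was taken as a score, because its column lists assembled loci and, again, annotated genes. Only annotated rows were used. The FPKM and the coverage signal deposited by the authors gave the depth. With no read counts, no count model was run and counting error is unknown.

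Libraries were brought to a common scale with median-ratio factors taken against per-gene geometric means (factors 0.998 and 1.01 in Cebpa_KO, and 0.994, 1.04 and 0.984 in WT). Genes reaching 1 TPM in 2 or more libraries were fitted on log2(scaled TPM + 1) with limma 3.58.1 (R 4.3.3), an intensity trend and Benjamini-Hochberg adjustment over all tested genes, called under 0.05. The fit was tested on simulated data. The chaperone genes and the other lists were chosen with earlier results of these data known. Every called, every stress-inducible and the most abundant gene of each role is given by library, and up to 4 genes of each other list are named by smallest p. The shorter heat shock motif and the Hspa1 copy comparison were chosen after the values were seen. There were 16 alternatives, namely other pseudocounts, filters, scalings and variance settings, the summed Hspa1 pair, omission of single libraries, and a block on replicate number.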

Additional observations from a re-analysis of the deposited data

How the results depend on the processing

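No chaperone gene changed the sign of its difference under any of the 16 alternatives. With no filter 16 chaperone genes were higher and 0 lower (limma; 35 and 2 at an unadjusted p under 0.05), the calls of Ahsa1, Bag3, Cct2, Dnaja3, Hsf2, Hsp90aa1, Hsp90ab1, Hspa2, Hspa8, Hspbp1 and Hspe1 being lost, and 930 genes were higher and 629 lower over all genes tested. With no trend 1 chaperone gene was lower. A pseudocount of 5 gave a constitutive median of 0.56. Array weights gave 2575 genes higher and 2440 lower, and 36 chaperone genes higher. Leaving out each library in turn gave 0 to 33 chaperone genes higher and 0 to 2 lower, and 5 to 2177 genes higher and 18 to 1825 lower over all genes. With 1 Cebpa_KO library, that library is assumed to vary like the WT libraries. For these changes the cause was not tested. The stress-inducible median lay between 0.88 without WT replicate 2 and 1.29 with the replicate block, within the spread between libraries. That spread includes WT replicate 3, which stood apart in several of these genes, so it is a weak check.

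Replicate numbers 1 and 2 occur in both groups, but the labels do not say that they pair the mice. Deviations from the group means correlated across genes at -0.18 for number 1 and 0.27 for number 2. For the unmatched Cebpa_KO replicate 1 and WT replicate 3 the value was 0.32. With 2 Cebpa_KO libraries their deviations mirror each other, so these correlations cannot show whether the numbers pair. With the replicate block, in which WT replicate 3 is alone in its block and adds nothing to the difference, 30 chaperone genes were higher and 0 lower (limma; 37 and 2 at an unadjusted p under 0.05), and over all genes 1359 were higher and 1050 lower. The block added Dnajb1, Hspa1a, Hspa1b, Hspb1 and Hsph1 to the calls and ended those of Hspa2, St13, Dnajc7 and Fkbp5.

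Precision is limited by the 2 Cebpa_KO libraries. Without read counts, the counting error of scarce genes such as Hsf2 is unknown.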
